A study of Mus musculus with 56 samples.

Results

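The respiratory chain and the ATP synthase of mouse brain were followed in 2 regions across inbred strains, through the nuclear genes that encode their subunits. The genes were chosen by symbol alone: those that start with Nduf, Uqcr, Atp5, Cox4, Cox5, Cox6, Cox7 or Cox8, plus the 4 succinate dehydrogenase genes and Cycs. Of 18183 genes that the array measured with at least 1 probe set annotated to a single symbol, 90 met the rule. A probe set is the group of short probes that reports one transcript, and each gene was read from its brightest probe set. Of the 90 genes, 79 passed a filter on dim probe sets and were tested, among 10684 tested features in all, and 11 were too dim in every array.

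RNA was profiled on 1-colour oligonucleotide arrays from prefrontal cortex of 29 inbred strains and nucleus accumbens, the ventral striatum, of 27 of them. Every one of the 56 arrays held RNA pooled from 3 male mice of a single strain, aged 8 to 10 weeks, and there was 1 array per strain and region. The 2 regions of a strain were dissected from neighbouring slices of the same brains, so strain served as the pair, and n is 27 strains. The spread between strains therefore includes the spread between pools of mice.

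The median probe set intensity was 9.94 to 10.43 on cortex arrays and 9.66 to 10.14 on accumbens arrays, before log2. The array number limits the precision of each value. The labelled regions were checked against markers: 10 of 10 tested genes of medium spiny neurons, the striatal output cells, were higher in accumbens, and 9 of 9 genes of cortical excitatory neurons were lower. The mean log2 level of the spiny neuron genes ran from 6.11 to 10.35 over cortex arrays, highest in MA/MyJ, and from 8.20 to 11.26 over accumbens arrays, lowest in BALB/cByJ. The library labelled C57BR/cdJ cortex correlated at r = 0.70 with BTBR T+ tf/J cortex, over all tested features after subtracting region means, and at 0.15 with the accumbens array of its own strain. C58/J cortex (0.31 with DBA/2J accumbens, 0.26 with its own) and C3H/HeJ cortex (0.29 with CBA/J, 0.28 with its own) also correlated better with another strain's accumbens array. Without C57BR/cdJ and C58/J the counts of respiratory chain genes called were again 30 higher, 30 lower and 7 strain-dependent.

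As background, complex I takes electrons from NADH and complex II from succinate, complex III passes them from ubiquinol to cytochrome c, and complex IV hands them to oxygen. Complexes I, III and IV pump protons across the inner mitochondrial membrane, and the ATP synthase uses the resulting gradient to make ATP. A few subunits are encoded in mitochondrial DNA and are not considered here, and the nuclear genes are known for being transcribed broadly together, with NRF1 and ETS-family factors such as GABPA among their regulators. Neurons depend on this pathway for the ATP that restores ion gradients after firing.

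Promoter sequence is shown for 4 genes whose region differences are described below, 2 of them lower and 2 higher in accumbens. RefSeq promoters (GRCm38.p6) matched 74 of the 90 genes, and the 250 bases before each start were searched on both strands for the 10-base NRF1 palindrome, which is spelled by the first capitals in Cox6a1, the ETS letters CCGGAAG and the YY1 letters AAGATGGC. The matches are in capitals, 5′ to 3′ on the strand of the gene. The windows are chr5:115348959-115349208, minus strand, for Cox6a1; chr7:30626115-30626364, minus strand, for Cox6b1; chr4:24897833-24898082, plus strand, for Ndufaf4; and chr15:102671048-102671297, minus strand, for Atp5g2.
Cox6a1: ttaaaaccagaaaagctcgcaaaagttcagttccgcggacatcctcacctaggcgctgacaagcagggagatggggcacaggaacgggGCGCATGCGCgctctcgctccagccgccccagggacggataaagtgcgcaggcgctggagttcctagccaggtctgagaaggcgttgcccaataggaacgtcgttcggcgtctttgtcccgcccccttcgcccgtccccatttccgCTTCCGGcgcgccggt
Cox6b1: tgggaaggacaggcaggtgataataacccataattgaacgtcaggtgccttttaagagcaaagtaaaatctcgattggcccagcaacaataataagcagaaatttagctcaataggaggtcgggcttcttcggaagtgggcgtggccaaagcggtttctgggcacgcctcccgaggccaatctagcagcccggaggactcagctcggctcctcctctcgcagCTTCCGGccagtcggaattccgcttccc
Ndufaf4: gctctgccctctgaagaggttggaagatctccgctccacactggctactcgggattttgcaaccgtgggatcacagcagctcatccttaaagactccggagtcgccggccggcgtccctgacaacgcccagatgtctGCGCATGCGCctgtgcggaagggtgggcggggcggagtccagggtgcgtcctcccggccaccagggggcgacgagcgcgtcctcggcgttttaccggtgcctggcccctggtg
Atp5g2: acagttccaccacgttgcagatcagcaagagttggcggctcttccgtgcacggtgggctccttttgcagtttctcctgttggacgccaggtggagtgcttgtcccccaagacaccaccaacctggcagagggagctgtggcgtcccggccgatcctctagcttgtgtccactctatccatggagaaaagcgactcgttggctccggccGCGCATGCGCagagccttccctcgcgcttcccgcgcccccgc

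In Cox6a1 the upstream capitals mark the NRF1 palindrome and the downstream capitals the ETS letters on the opposite strand, and the matches do not overlap. Cox6b1 held the ETS letters on the opposite strand, and Ndufaf4 and Atp5g2 the NRF1 palindrome. The NRF1 palindrome stood in 4 of the 74 matched genes (5.41%), against 0.877% of all 27025 genes with a promoter of that length. The 4 genes were Atp5g2 and Ndufaf4, higher in accumbens, and Atp5k and Cox6a1, lower. The ETS letters stood in 14 of the 74 genes (18.9%), against 7.83% of all genes. Of those 14, 2 were higher in accumbens, 7 lower and 5 did not pass the test described next. The YY1 letters stood in 1, Atp5j (1.35%), against 1.83% of all genes. No test was made of these shares.

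The question of the region comparison was how the same genes differ between 2 tissues of the same brains. The chain did not shift as a block: 30 of the 79 genes were higher in accumbens, 30 were lower and 19 did not pass the test. A gene passed when limma's moderated t of region, with strain as a block, had a Benjamini-Hochberg adjusted p under 0.05 over all tested features. Most features of the array passed this test, 82.6% in either direction, 42.7% higher and 39.8% lower, so a member's passing it is common. In size the members differed little. Their median absolute difference was 0.18 on the log2 scale, against 0.36 over all tested features and 0.30 over the 1641 features with a mean log2 level of 9 or more. Differences of 0.5 or more were seen in 5 of the 79 genes, against 37.6% of all features and 29.9% of the bright ones. The median member difference was -0.0036 and that of all features 0.02. The same direction in all 27 strains was seen for 10 lower and 6 higher members, against 15.1% and 14.3% of all features, 29.5% together.

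These signs depend on how arrays are set to a common level, since the deposited accumbens values ran 0.12 higher at the median of all features' differences. Arrays were aligned on their median tested feature, which lowered every difference by the same amount and left that median at 0.02. In the values as deposited 42 members were higher and 19 lower, and after a second quantile normalization 31 and 27. The members' median was 0.10 as deposited. Tissue pieces hold many cell types, and fewer cells of a type and less RNA per cell cannot be told apart. Markers of other cell types moved with region too: 9 of 9 oligodendrocyte genes were higher in accumbens (median 1.26; list mean 7.38 to 9.54 over cortex arrays and 8.19 to 10.63 over accumbens arrays). Of 5 tested genes listed for fast-spiking interneurons, 3 were lower (list median -1.36, list mean 8.18 to 8.84 and 6.10 to 8.99). The 1 that was higher, by 1.12, was Gad1, which is not particular to these cells. Astrocyte genes were 2 higher and 4 lower of 7 (median -0.17; 8.91 to 9.37 and 8.44 to 9.41). Microglial genes were 4 higher and 2 lower of 7 (median 0.37), and endothelial genes 4 lower of 4 (median -0.43). The 2 tested genes listed for choroid plexus were higher but differed in size, Clic6 by 4.51 and Ttr by 1.32. Clic6 had a cortex mean of 2.38. Ttr means, 3.64 in cortex and 4.95 in accumbens, were both below log2 5, near background. The difference between 3′ and 5′ actin probe sets, which widens as RNA degrades, was 1.74 ± 0.27 in cortex and 1.92 ± 0.18 in accumbens (SD, n = 27) and was larger in accumbens in 19 of 27 strains. The part of any of these in the members' differences was not tested.

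**Figure D1:**
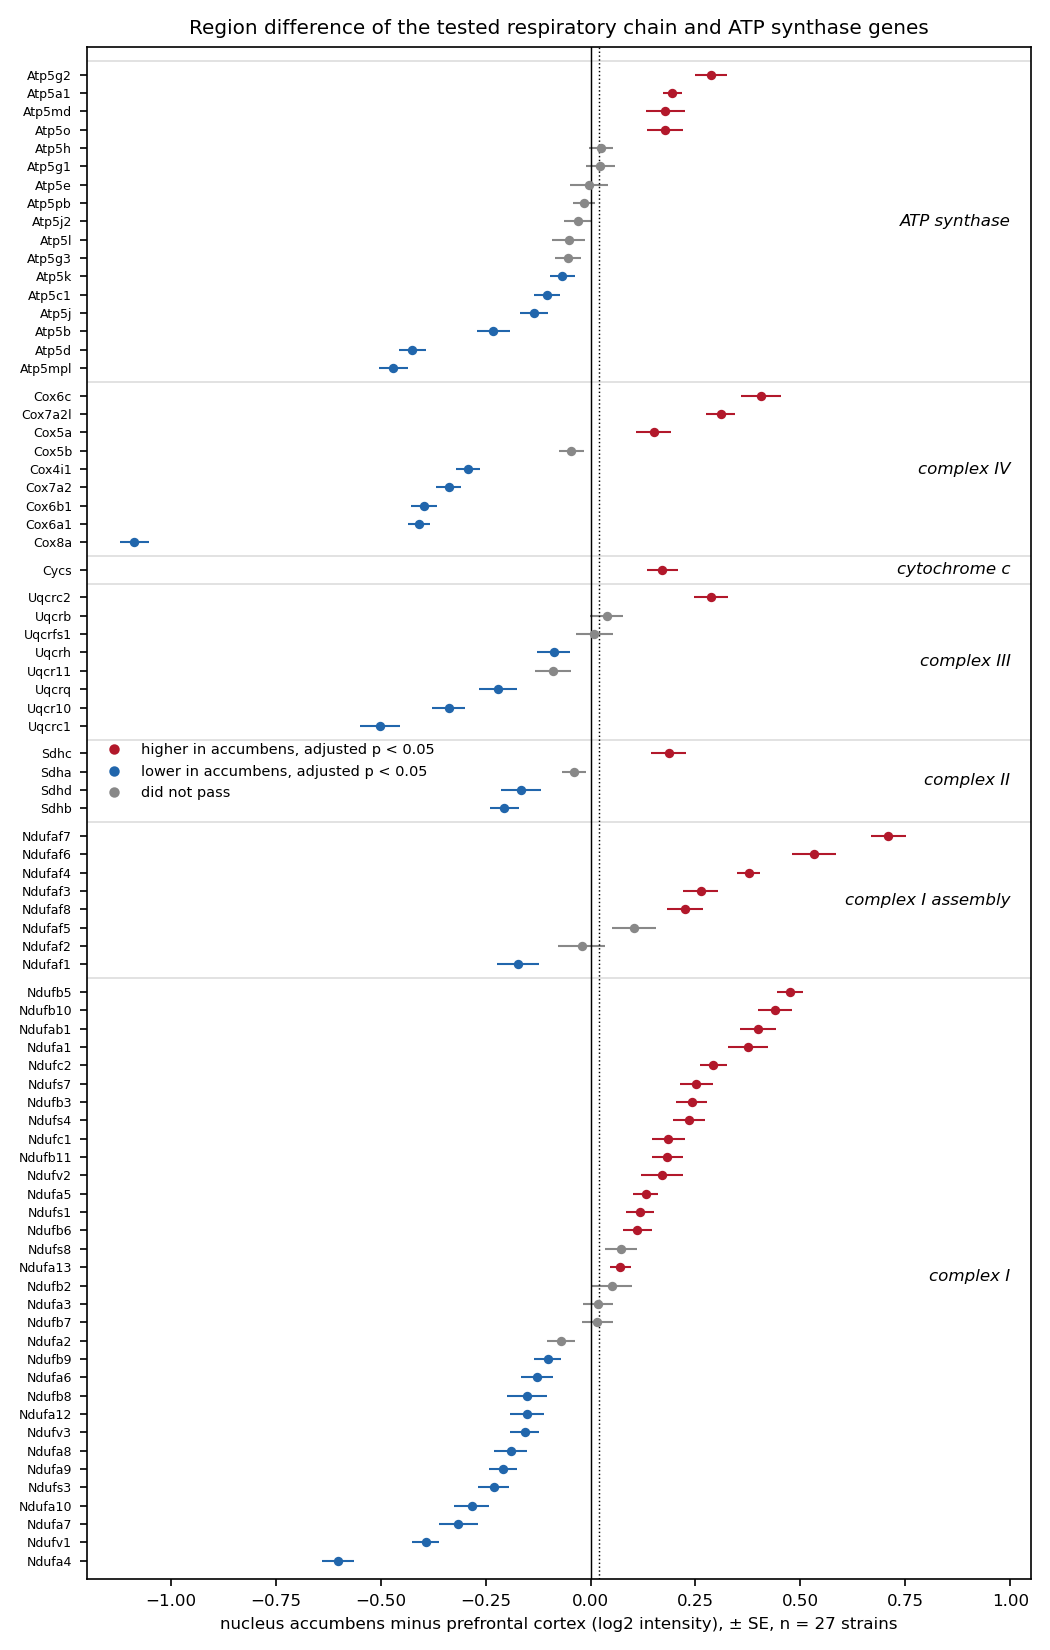
Accumbens minus cortex difference of the 79 tested genes in log2 intensity, grouped by complex; points are fitted differences, bars ± SE over 27 strains, and the dotted line is the median of all tested features. Cox8a lies alone at -1.09, complex IV is mostly left of 0 and the complex I assembly factors mostly right of it.

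Complex IV, cytochrome c oxidase, held the largest single difference and the lowest median of the complexes. Of its 9 tested genes, 5 were lower in accumbens (55.6%, against 39.8% of all tested features). Another 3 were higher (33.3%, against 42.7%) and Cox5b did not pass. The median was -0.29 ± 0.12 (SD of the strains' own medians), and the strain median was below 0 in 27 of 27 strains. It was -0.19 in the values as deposited and -0.29 after quantile normalization, but turned to 0.037 with no filter on dim probe sets. In that setting arrays were aligned on the median of 28253 mostly dim features, and the dim isoforms described further on were counted too. At the main alignment, Cox6a2 alone of the dim complex IV genes had the higher mean in accumbens (3.21, against 2.90 in cortex).

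Cox8a, a small subunit of complex IV, differed most of all members. Its log2 level ranged from 9.95 to 10.82 in cortex with a median of 10.53, and from 9.02 to 9.80 in accumbens with a median of 9.40. Every cortex array lay above every accumbens array. The means were 10.51 ± 0.19 in cortex and 9.42 ± 0.17 in accumbens (SD, n = 27), a difference of -1.09 (SE 0.035, adjusted p = 1.70e-22), or 2.12-fold lower in accumbens. Its second probe set gave -1.05. Arrays of the regions failed to overlap in this way in 3 of the 79 genes, Cox8a, Ndufv1 and Ndufb5, against 11.1% of all features.

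Cox6a1, the broadly expressed form of subunit VIa, was also lower in accumbens. Its levels ran from 13.22 to 13.62 in cortex with a median of 13.51, and from 12.80 to 13.31 in accumbens with a median of 13.08. The ranges touched only where 129S1/SvImJ, the lowest cortex array at 13.22, fell under the highest accumbens arrays. The difference was -0.41 (SE 0.027, adjusted p = 9.66e-15), lower in 27 of 27 strains, and the second probe set gave -0.59. Its promoter is the one above with both the NRF1 and the ETS letters.

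Cox6b1 encodes subunit VIb, which faces the intermembrane space. It ranged from 12.27 to 12.65 in cortex with a median of 12.49, and from 11.74 to 12.31 in accumbens with a median of 12.08. The regions overlapped at their edges, and the value in accumbens was the lower one in each of 27 strains. The difference was -0.40 (SE 0.032, adjusted p = 9.54e-13), but the second probe set of the gene gave -0.02 and did not pass.

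Cox7a2 and Cox4i1 were lower in all 27 strains as well. Cox7a2, the non-muscle form of subunit VIIa, was at 12.11 ± 0.10 in cortex and 11.77 ± 0.13 in accumbens (SD, n = 27), a difference of -0.34 (SE 0.030, adjusted p = 1.09e-11). Cox4i1, the common form of subunit IV, was at 12.94 ± 0.10 in cortex and 12.64 ± 0.13 in accumbens (SD, n = 27), a difference of -0.29 (SE 0.029, adjusted p = 1.20e-10). Both of the tested Cox7a2 probe sets passed as lower, and Cox4i1 had 1.

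The other 3 complex IV genes that passed went the opposite way. Cox7a2l, which encodes a factor of respiratory supercomplexes related to subunit VIIa, ranged from 8.69 to 9.17 in cortex with a median of 8.92, and from 8.91 to 9.72 in accumbens with a median of 9.22. The regions overlapped, yet accumbens was higher in 27 of 27 strains, by 0.31 (SE 0.035, adjusted p = 1.84e-09), and its 3 probe sets gave 0.31, 0.27 and 0.26. Cox5a was higher by 0.15 with both probe sets. Cox6c was higher by 0.40 (SE 0.048, adjusted p = 4.78e-09) on its brightest probe set and lower, at -0.62, on the other, so its direction is not settled by these arrays. Cox5b, at -0.05 (adjusted p = 0.151), had 4 probe sets: 1 passed as lower, 1 as higher and 2 did not pass.

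**Figure D2:**
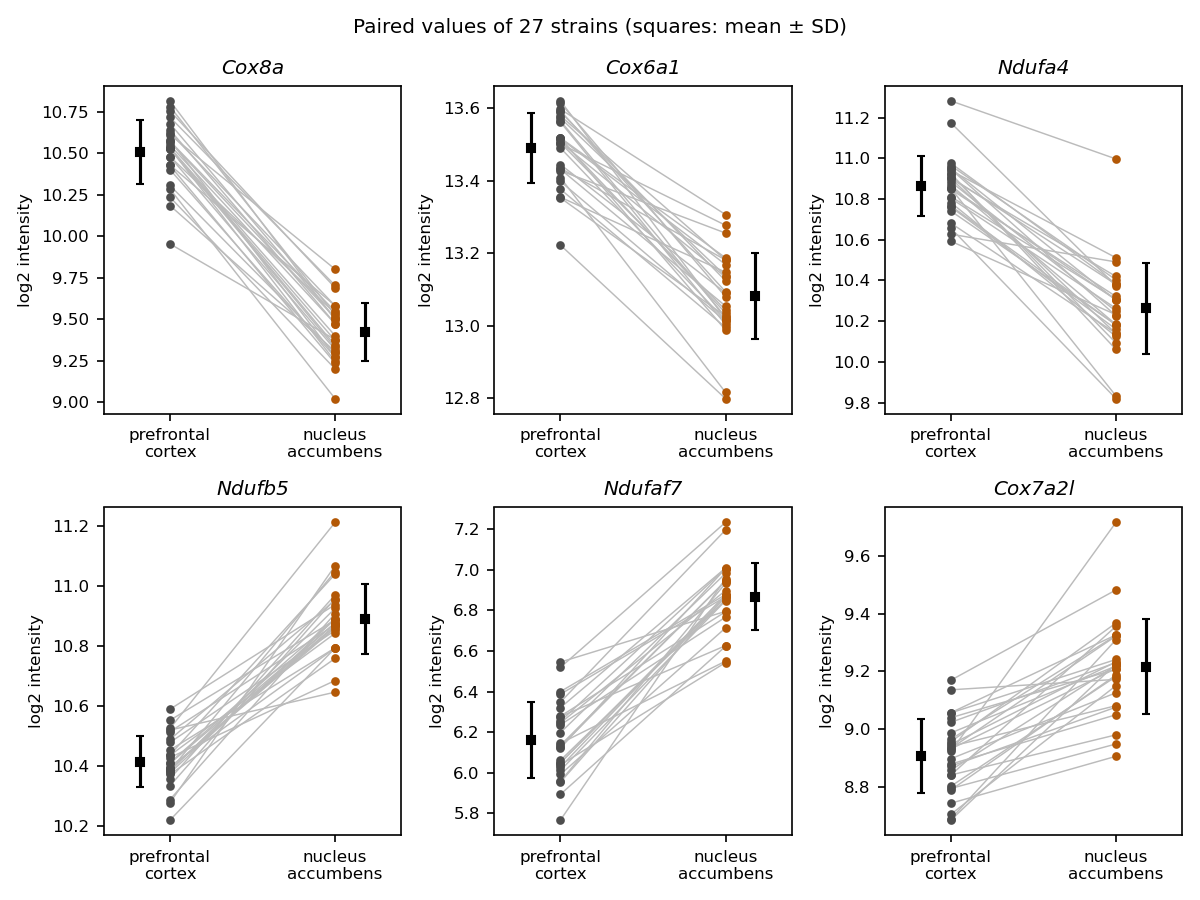
Log2 intensity of 6 genes in prefrontal cortex and nucleus accumbens; each line joins the 2 arrays of a strain (27 strains), and squares with bars are mean ± SD. Lines fall in every strain for Cox8a, Cox6a1 and Ndufa4 and rise in every strain for Ndufb5, Ndufaf7 and Cox7a2l.

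Ndufa4 carries a complex I symbol, although its protein is now placed in complex IV. Its levels ran from 10.59 to 11.28 in cortex with a median of 10.87, and from 9.82 to 11.00 in accumbens with a median of 10.25. P/J was the highest strain in both regions, at 11.28 and 11.00, and its accumbens array was the only one within the cortex range. The difference was -0.60 (SE 0.037, adjusted p = 2.68e-15), lower in 27 of 27 strains. It rests on 1 probe set.

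Complex I had 32 tested genes, of which 15 were higher in accumbens, 12 lower and 5 did not pass. These shares, 46.9% higher and 37.5% lower, were near those of all tested features, 42.7% and 39.8%. The median of complex I was 0.06 ± 0.13 (SD over strains). That median was 0.16 in the values as deposited, 0.09 after quantile normalization and 0.21 with no filter. Ndufs3, a complex I subunit, was lower (-0.23). The subunits that carry the flavin and the iron-sulphur clusters were grouped after the values were seen. Among them Ndufv1 (-0.39) was lower and Ndufs7 (0.25), Ndufv2 (0.17) and Ndufs1 (0.12) were higher on their brightest probe sets. The second set of Ndufs7 was lower, at -0.14. Ndufs8 did not pass on its brightest set (0.07), and its other 4 sets were lower, at -0.20 to -0.09.

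Ndufv1 holds the site where NADH is oxidised. It ranged from 9.65 to 10.17 in cortex with a median of 9.86, and from 9.20 to 9.64 in accumbens with a median of 9.46. No array of one region reached the other, though the edges nearly met, at 9.65 and 9.64. The difference was -0.39 (SE 0.032, adjusted p = 2.45e-12), and its 3 probe sets gave -0.39, -0.24 and -0.38.

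Ndufb5, an accessory subunit of the membrane arm, went the opposite way. Its log2 level lay from 10.22 to 10.59 in cortex with a median of 10.40, and from 10.65 to 11.21 in accumbens with a median of 10.88. The regions did not overlap, and the difference was 0.48 (SE 0.031, adjusted p = 6.55e-15). The other probe set of the gene gave 0.10 and did not pass (adjusted p = 0.0617).

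Ndufb10, Ndufab1 and Ndufa1 followed among the higher genes. Ndufb10, also of the membrane arm, was at 10.08 ± 0.13 in cortex and 10.52 ± 0.16 in accumbens (SD, n = 27), a difference of 0.44 (SE 0.040, adjusted p = 2.74e-11) with 26 of 27 strains higher. Ndufab1, the mitochondrial acyl carrier protein, was at 10.84 ± 0.13 in cortex and 11.24 ± 0.17 in accumbens (SD, n = 27), a difference of 0.40 (SE 0.043, adjusted p = 8.73e-10). Its 3 probe sets all passed as higher, but those beside the brightest had cortex means of 5.12 and 4.88, near the filter level of log2 5. Ndufa1, a small X-linked subunit, differed by 0.38 (SE 0.047, adjusted p = 1.55e-08) and was higher in 25 of 27 strains.

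Of the factors that assemble complex I, 62.5% were higher in accumbens, against 42.7% of all tested features. Of 8 tested Ndufaf genes 5 were higher, 1 was lower and 2 did not pass. Their median was 0.24 ± 0.13 (SD over strains) and was above 0 in 27 of 27 strains, and it was 0.34 in the values as deposited, 0.26 after quantile normalization and 0.41 with no filter.

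Ndufaf7, a methyltransferase that acts on a complex I subunit, had the largest difference above 0 of any tested member. It ranged from 5.77 to 6.55 in cortex with a median of 6.13, and from 6.54 to 7.23 in accumbens with a median of 6.87. The highest cortex array, PL/J at 6.545, and the lowest accumbens array, NOD/LtJ at 6.543, just met. The difference was 0.71 (SE 0.041, adjusted p = 5.99e-16), or 1.63-fold, higher in 27 of 27 strains.

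Ndufaf4, whose promoter is shown above, was higher in 27 of 27 strains. Its levels were 7.45 ± 0.15 in cortex and 7.82 ± 0.17 in accumbens (SD, n = 27), a difference of 0.38 (SE 0.027, adjusted p = 9.14e-14), and its second probe set gave 0.25. Ndufaf6 differed by 0.53 (SE 0.053, adjusted p = 1.35e-10), but its cortex mean of 4.46 was below the filter level of log2 5, where intensities are close to background. Ndufaf3 (0.26) and Ndufaf8 (0.22) were higher as well. Ndufaf1 was lower, at -0.17 (SE 0.050, adjusted p = 0.00261), and no longer passed in the values as deposited, at -0.07.

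Succinate dehydrogenase, complex II, also feeds electrons into the chain and is part of the citric acid cycle. Its 4 genes did not move together. The flavoprotein gene Sdha was at 10.25 ± 0.07 in cortex and 10.21 ± 0.14 in accumbens (SD, n = 27), a difference of -0.04 (SE 0.029, adjusted p = 0.208), and its sign turned to 0.060 in the values as deposited and 0.010 after quantile normalization. The iron-sulphur subunit Sdhb was at 9.92 ± 0.14 in cortex and 9.72 ± 0.16 in accumbens (SD, n = 27), lower, at -0.21 (SE 0.035, adjusted p = 3.67e-06), in 24 of 27 strains.

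The membrane anchors Sdhc and Sdhd gave different results. Sdhc was higher by 0.19 (SE 0.042, adjusted p = 1.71e-04), with both probe sets. Sdhd was at -0.17 (adjusted p = 0.00194) on its brightest probe set and at 0.55 on its other one, each past the test in its own direction, and the brightest set no longer passed in the values as deposited, at -0.07. The median of complex II was -0.10 ± 0.16 (SD over strains), and it was -0.0034 in the values as deposited and turned to 0.059 with no filter.

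Complex III had 1 gene higher (12.5%, against 42.7% of all tested features), 4 lower (50%, against 39.8%) and 3 not past of 8. The median of complex III, -0.09 ± 0.17 (SD over strains), turned to 0.01 in the values as deposited and 0.07 with no filter. Its core proteins Uqcrc1 and Uqcrc2 sit side by side in the complex. Uqcrc1 ranged from 9.69 to 10.42 in cortex with a median of 10.01, and from 9.07 to 10.20 in accumbens with a median of 9.52. The regions overlapped, with the BALB/cByJ accumbens array, at 10.20, the farthest into the cortex range. The difference was -0.50 (SE 0.048, adjusted p = 6.65e-11), lower in 26 of 27 strains. Uqcrc2 was higher by 0.29 (SE 0.041, adjusted p = 1.69e-07) in 25 of 27 strains, and its other probe set did not pass. Uqcr10, a small subunit, was lower, at -0.34 (SE 0.039, adjusted p = 3.21e-09), in 27 of 27 strains.

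Cycs, cytochrome c, carries electrons between complexes III and IV. It was at 11.70 ± 0.11 in cortex and 11.87 ± 0.13 in accumbens (SD, n = 27), a difference of 0.17 (SE 0.037, adjusted p = 1.21e-04) with 24 of 27 strains higher. Its other probe sets gave -0.28, past the test, and -0.06, which was not.

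The ATP synthase genes were 4 higher (23.5%, against 42.7% of all tested features), 6 lower (35.3%, against 39.8%) and 7 not past of 17. Their median was -0.03 ± 0.13 (SD over strains), and turned to 0.07 in the values as deposited, 0.0023 after quantile normalization and 0.13 with no filter. In the catalytic head, Atp5a1, the alpha subunit, was higher by 0.20 (SE 0.023, adjusted p = 3.65e-09) in 27 of 27 strains with all 3 probe sets. Atp5b, the beta subunit that pairs with it, was lower, at -0.23 (SE 0.040, adjusted p = 3.95e-06), in 25 of 27 strains on a single probe set. The dimmest Atp5a1 set had a cortex mean of 4.52, below the filter level of log2 5.

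Atp5d and Atp5mpl were the lowest of this complex in accumbens relative to cortex. Atp5d, the delta subunit of the central stalk, ranged from 10.49 to 11.01 in cortex with a median of 10.72, and from 10.05 to 10.49 in accumbens with a median of 10.31. The highest accumbens array only just reached the lowest cortex array, and the difference was -0.42 (SE 0.032, adjusted p = 2.05e-13), with -0.46 on the second probe set. Atp5mpl, a small membrane subunit, was at 10.11 ± 0.13 in cortex and 9.64 ± 0.14 in accumbens (SD, n = 27), a difference of -0.47 (SE 0.035, adjusted p = 1.78e-13), lower in 27 of 27 strains.

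A trio of genes, Atp5g1, Atp5g2 and Atp5g3, encode the same mature subunit c of the rotor ring with different import sequences. Atp5g2 was at 9.25 ± 0.18 in cortex and 9.54 ± 0.11 in accumbens (SD, n = 27), higher by 0.29 (SE 0.038, adjusted p = 4.97e-08) in 25 of 27 strains. Atp5g1 (0.02, adjusted p = 0.529) and Atp5g3 (-0.05, adjusted p = 0.108) did not pass. Both were above 0 in the values as deposited, where Atp5g1 passed at 0.12.

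Several complex IV subunits have a second gene that is known from muscle, lung or testis. The probe sets of Cox4i2, Cox6a2, Cox6b2, Cox7a1, Cox7b2, Cox8b, Cox8c and Ndufa4l2 were below log2 5 on all 54 paired arrays and were not tested. Their region means ran from 1.73 for Cox8c in accumbens to 3.90 for Cox7a1 in cortex. The same held for the probe sets of Cox7c, Ndufb1 and Ndufb4 that carry 1 symbol, although these are ordinary subunits of brain. For Ndufb4, a probe set shared with 2 near-identical copies stood at 10.92 in cortex and 10.87 in accumbens, and a dim probe set does not show that its gene is silent.

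Where a gene had more than 1 probe set, the sets often differed. The 79 genes had 141 tested probe sets, of which 52 were higher in accumbens and 56 lower. For 42 genes with several, 10 had every set higher, 6 had every set lower, 9 had sets that passed in both directions and the other 17 had at least 1 set that did not pass. Among those with every set higher, Atp5a1, Ndufab1 and Ndufs4 each had a set with a cortex mean below log2 5, near background. The remaining 37 genes rest on 1 probe set each. Both directions were seen for Atp5k, Cox5b, Cox6c, Cycs, Ndufa7, Ndufb11, Ndufc2, Ndufs7 and Sdhd. Counting a gene only if all its tested sets passed the same way, 21 were higher and 23 lower. Of these, 11 of the higher and 17 of the lower genes had 1 probe set, which cannot disagree. Probe sets of a gene can read different transcript ends or related sequences, and which applies was not tested.

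**Figure D3:**
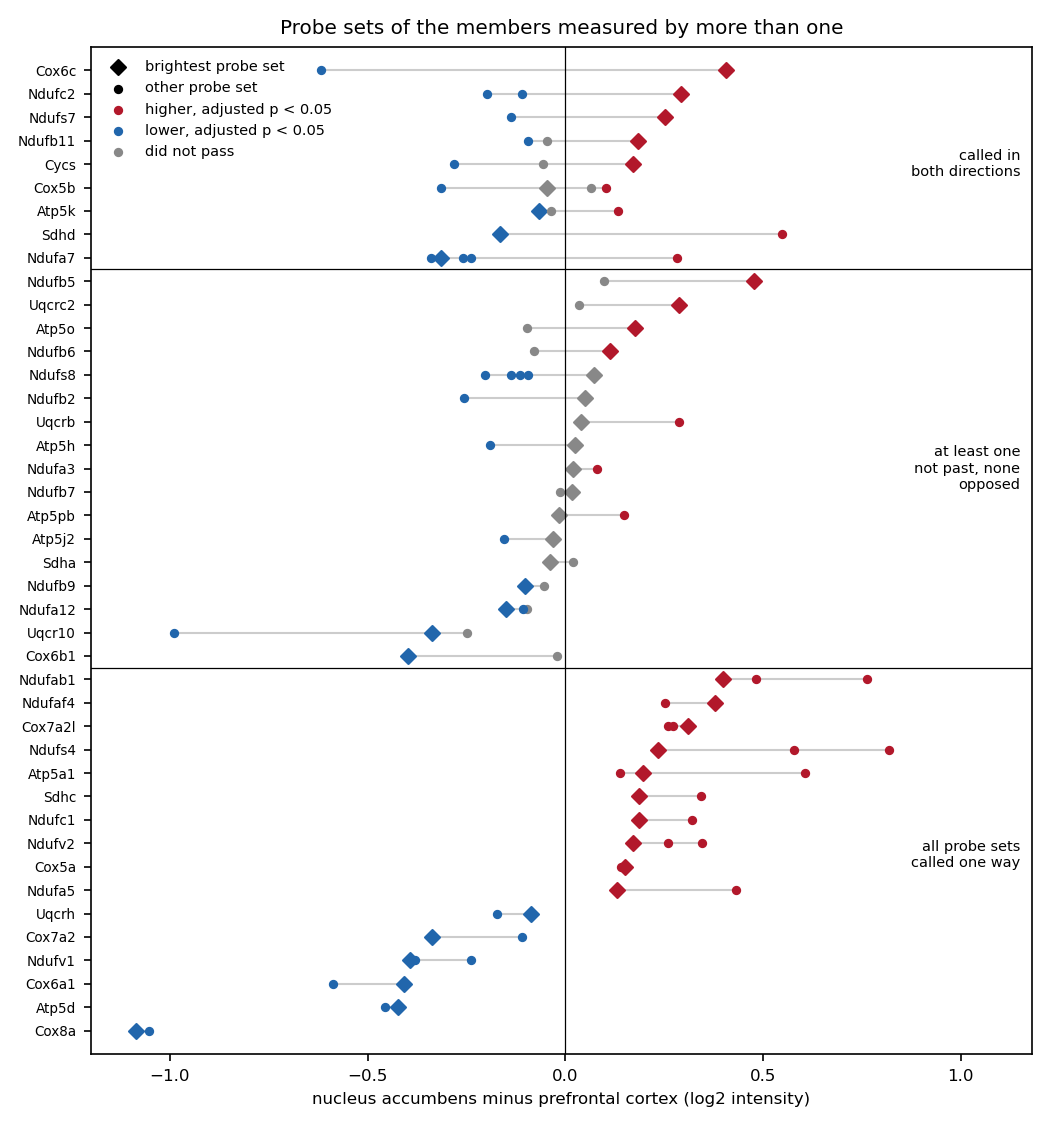
Accumbens minus cortex difference (log2 intensity) for each tested probe set of the 42 genes with more than 1; diamonds are the brightest set and colours the call. Sets of Cox8a and Cox7a2l nearly coincide, and those of Cox6c and Sdhd lie on opposite sides of 0.

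The strain comparison asked which genes differed between strains in the same way in both regions. It was tested by limma's moderated F over the strain coefficients, and 7 of the 79 genes passed (8.86%), against 20.2% of all tested features and 15.4% of the bright ones. The median SD of strain means was 0.11 over the members, 0.18 over all features and 0.13 over the bright ones. The distance from the lowest to the highest strain mean had a median of 0.44, against 0.74 and 0.54.

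Cox5b, a subunit of complex IV that faces the matrix, varied by strain on all 4 of its probe sets. Its strain means, over both regions, ran from 11.67 in WSB/EiJ to 12.28 in BTBR T+ tf/J, with a median of 12.03 (adjusted p = 1.03e-04). In cortex alone the lowest array was WSB/EiJ at 11.61 and the highest PL/J at 12.36, and in accumbens SM/J at 11.56 and BTBR T+ tf/J at 12.37. The strains formed a continuous series without a step.

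Atp5g1 had the second largest strain spread among the 7, with an SD of strain means of 0.23. Strain means ran from 9.57 in NZW/LacJ to 10.39 in NOD/LtJ, with a median of 9.99 (adjusted p = 5.25e-05), a span of 1.76-fold. Ndufaf1, an early-acting assembly factor, spread the most, with an SD of 0.26 and means from 5.88 in SWR/J to 6.84 in C57BL/6J, with a median of 6.51 (adjusted p = 0.00238). Its span was 1.94-fold.

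Ndufaf4 strain means ran from 7.35 in BTBR T+ tf/J to 7.98 in WSB/EiJ, with a median of 7.62 (adjusted p = 0.00128), and its second probe set did not pass (adjusted p = 0.392). Ndufa4 means ran from 10.24 in 129S1/SvImJ to 11.14 in P/J, with a median of 10.56 (adjusted p = 0.0212). P/J stood above the next strain, at 10.77, in this gene. Ndufv3, a subunit near the NADH site, ran from 9.90 in SJL/J to 10.66 in BALB/cByJ, with a median of 10.22 (adjusted p = 0.0214).

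Cox8a differed by strain as well as by region. Its means ran from 9.65 in 129S1/SvImJ to 10.22 in FVB/NJ, with a median of 9.97 (adjusted p = 0.00926), and its second probe set also passed (adjusted p = 0.0254). The span between strains, 0.57, was smaller than the difference between regions.

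**Figure D4:**
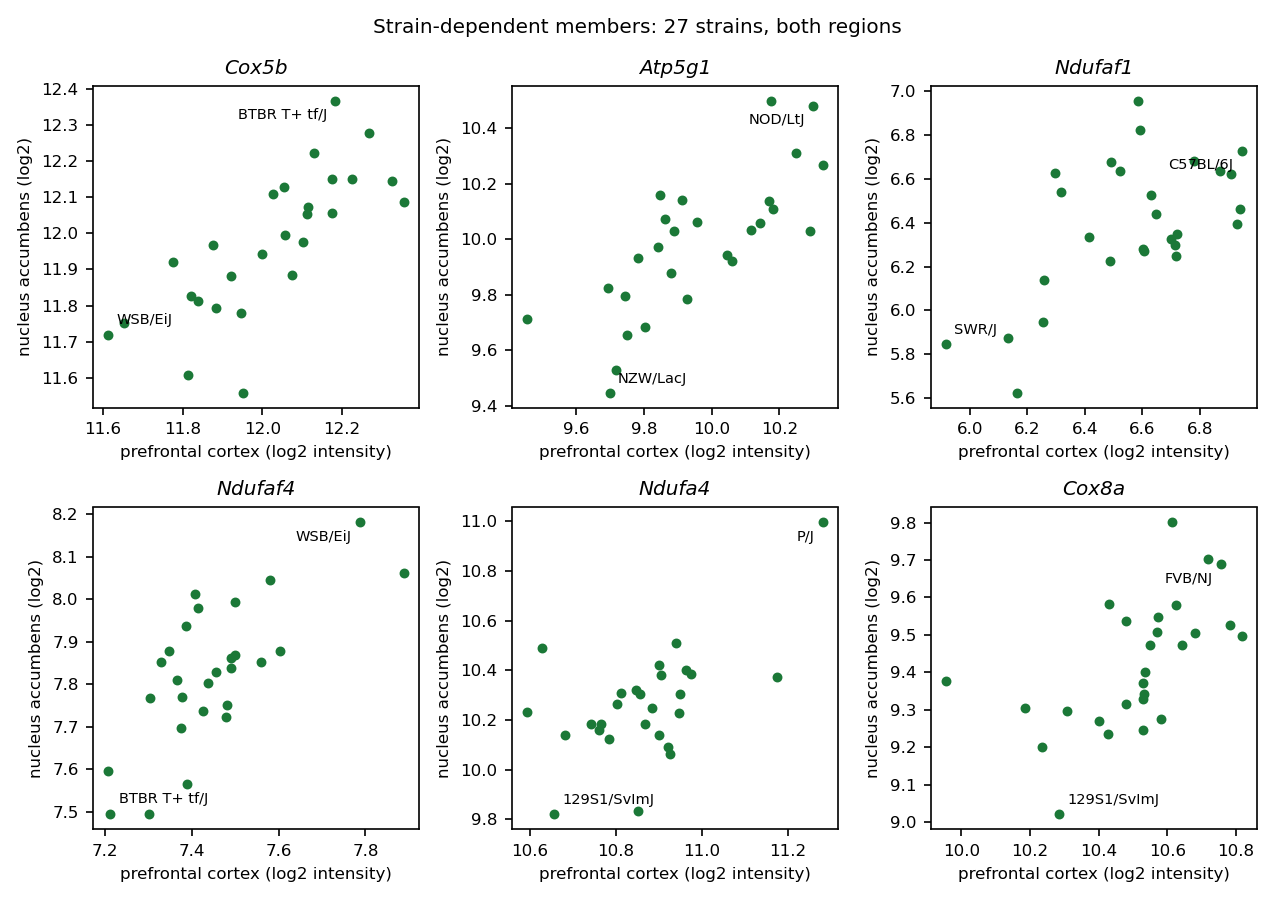
Log2 intensity in nucleus accumbens against prefrontal cortex for 6 strain-dependent genes, 1 point per strain (27 strains), with the strains of lowest and highest mean named. P/J stands apart in Ndufa4, and the other panels show a continuous spread.

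Other probe sets of 2 members split the strains into classes that the brightest set did not show. They were picked after their values were seen. The dimmest of the 3 Ndufa12 sets stood between 10.88 and 11.23 in cortex in AKR/J, C57BL/6J, MA/MyJ, NON/LtJ and NZW/LacJ and at no more than 9.90 in the other strains. In accumbens the same 5 strains stood between 10.59 and 11.10 and the others at no more than 9.98. The strain test of that set gave an adjusted p of 9.26e-11, and that of the brightest set 0.139.

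A dim set of Uqcr10 was above log2 5 on 10 arrays of each region and between 2.43 and 3.67 on the others (strain adjusted p = 6.26e-11, against 0.293 for the brightest set). In all, 9 strains were above it in both regions, with 129S1/SvImJ at 7.22 and 6.67, C57BL/6J at 6.77 and 6.30, and WSB/EiJ at 7.24 and 7.18. C57BR/cdJ and C58/J, both named above for their cortex arrays, were above it in 1 region only. C57BR/cdJ was at 3.67 in cortex and 6.56 in accumbens, and C58/J at 5.79 and 2.52. The remaining Uqcr10 set, also strain-dependent (adjusted p = 5.91e-05), was above log2 5 on 10 cortex and 7 accumbens arrays. On that set more strains were above log2 5 in cortex only: C3H/HeJ (6.61 and 3.53), C57BL/6J (5.43 and 4.97) and SM/J (6.42 and 4.80).

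On some arrays most members stood high or low at once, and for most of these strains the other region did not follow. As a description, each array's median deviation of the 79 genes from its region mean was taken, after alignment. In accumbens it was highest in BTBR T+ tf/J (0.20, with 74 of 79 genes above the region mean) and BALB/cByJ (0.19, with 64), and lowest in SM/J (-0.18, with 6) and 129S1/SvImJ (-0.16, with 5). In cortex it was highest in I/LnJ (0.17, with 65 of 79) and PL/J (0.15, with 70), and lowest in SWR/J (-0.13, with 28) and WSB/EiJ (-0.12, with 9).

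SM/J was at 0.09 in cortex with 69 of 79 genes above the region mean, the reverse of its accumbens array. WSB/EiJ was at 0.10 in accumbens with 56 above, the reverse of its cortex array. Only 129S1/SvImJ among these extremes was low in both, at -0.08 in cortex with 21 of 79 above. With 1 array for each strain and region, a property of the pool and one of the array cannot be told apart.

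Some of these arrays stood apart in other ways. The SWR/J cortex array was the lowest of its region for 23 of the 79 genes and had an actin 3′ to 5′ difference of 2.62, against the cortex mean of 1.74. The BALB/cByJ accumbens array was the highest of its region for 30 genes, and its median absolute deviation over all features was 0.36, against at most 0.20 on the other arrays. It was also the lowest accumbens array in spiny neuron genes and the highest in the fast-spiking interneuron list, Gad1 included, at 8.99. The median absolute deviation of the SWR/J cortex array over all features was 0.19. The share of all features for which either array was lowest or highest was not counted. Neither count of genes can therefore be read as particular to the members. The part of these values in the members' levels was not tested. Without BALB/cByJ and 4 other strains whose arrays stood apart in striatal genes, 30 members were higher in accumbens, 31 lower and 9 strain-dependent.

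**Figure D5:**
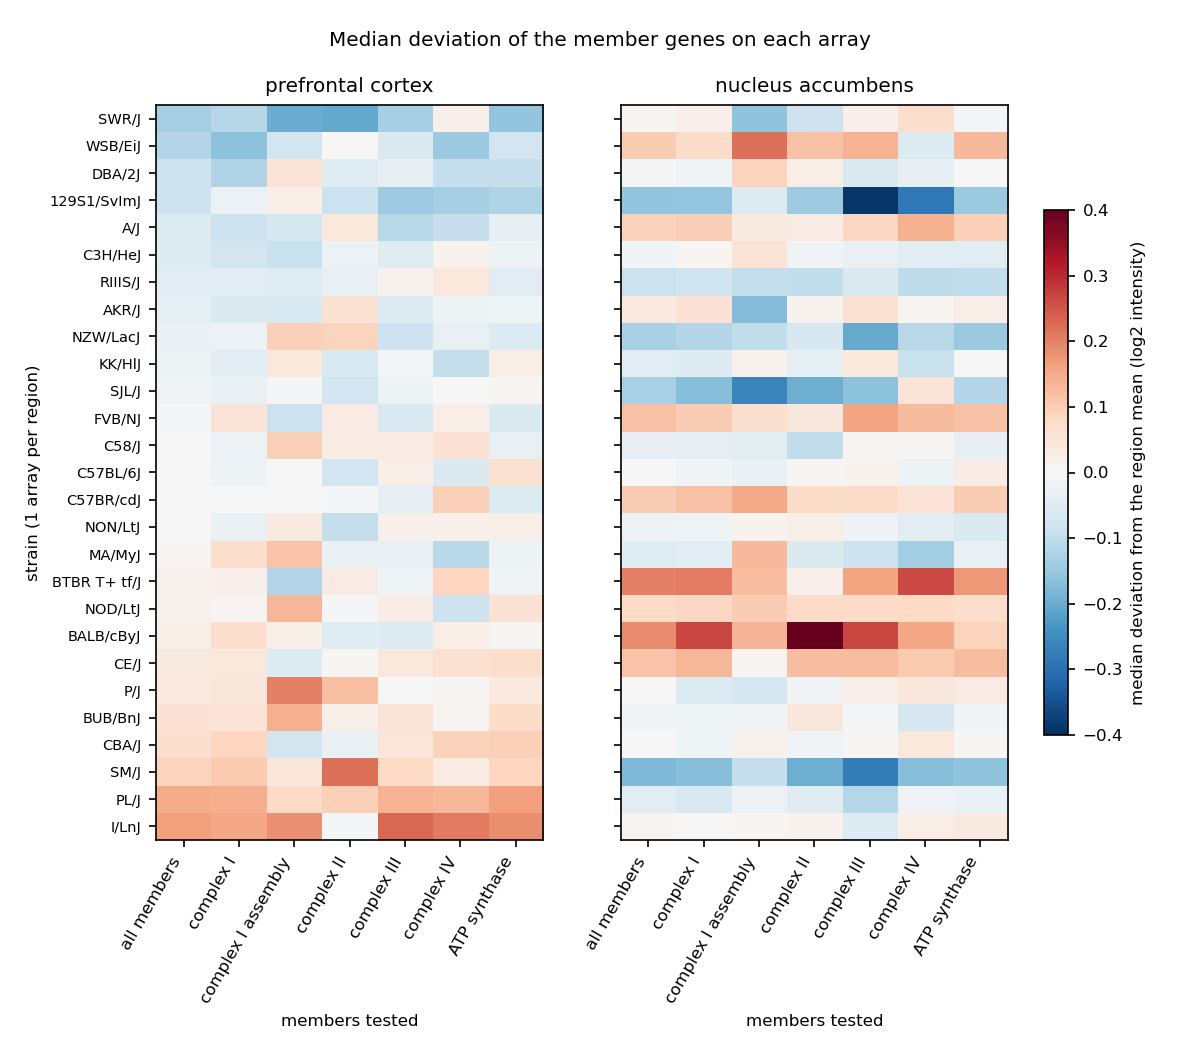
Median deviation of the tested genes of each complex from the region mean (log2 intensity, colour) on each of 54 arrays, strains sorted by their cortex value. Rows are often of a single colour across complexes, and SM/J and WSB/EiJ change colour between the regions.

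Genes around the chain were read from lists of known function. Beside the counts of each list below, 42.7% of all tested features were higher in accumbens and 39.8% lower. Pyruvate dehydrogenase and citric acid cycle genes, which supply the electrons, were 6 higher and 7 lower of 17 tested, with a median of 0.04. Pdha1 (-0.48, adjusted p = 1.30e-13) and Dlat (-0.27, adjusted p = 5.85e-07), of the pyruvate dehydrogenase complex, were lower. Suclg1 of succinyl-CoA ligase (0.33, adjusted p = 1.10e-07) and Dld, a shared dehydrogenase subunit (0.30, adjusted p = 1.84e-06), were higher.

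Assembly factors outside the symbol rule were 10 higher and 8 lower of 23 (median 0.09), and 8 of them were strain-dependent. Over all tested features the shares were 42.7% higher, 39.8% lower and 20.2% strain-dependent. Cox15, needed for the haem A of complex IV, was higher by 1.16 (adjusted p = 1.67e-20), while Sco2, which delivers copper to the same complex, was at -0.76 (adjusted p = 6.36e-17) with an accumbens mean of 4.72, near background. Nubpl, an iron-sulphur factor of complex I, was higher by 0.90 (adjusted p = 1.66e-11) from a cortex mean of 4.02, also near background. Timmdc1, a complex I factor, was at -0.40 (adjusted p = 1.76e-13).

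The carriers and kinases that exchange ATP, ADP and phosphate were 2 higher and 4 lower of 10 (median -0.03). Slc25a4 and Slc25a5 encode forms of the ADP/ATP carrier: Slc25a4 was lower in accumbens, at -0.42 (adjusted p = 1.78e-10), and Slc25a5 higher, at 0.22 (adjusted p = 4.38e-06). Ckmt1, the mitochondrial creatine kinase, was at -0.46 (adjusted p = 3.13e-10) and Ak3, an adenylate kinase of the matrix, at 0.35 (adjusted p = 9.82e-12).

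Regulators of mitochondrial biogenesis were 4 higher and 4 lower of 9 (median -0.07). The coactivator Ppargc1a was at -0.46 (adjusted p = 1.50e-04) and its relative Ppargc1b at 0.55 (adjusted p = 6.92e-08). The receptor Esrra was at -0.42 (adjusted p = 1.78e-09) and the ETS factor Gabpa at 0.71 (adjusted p = 1.25e-13).

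Glycolysis genes were 12 lower and 1 higher of 13, with a median of -0.41. Hk1, the main brain hexokinase, was at -1.02 (adjusted p = 8.88e-20) and Pfkl, a phosphofructokinase, at -0.90 (adjusted p = 3.00e-18). Ldhb, a lactate dehydrogenase subunit, was the gene that was higher, at 0.14 (adjusted p = 0.00431). Whether this list differs from the respiratory chain was not tested.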

How the data were processed

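The values were the intensities deposited by the authors, on a linear scale, 1 per probe set and array. The submitters' processing notes name GCRMA, without a version. Of 45015 probe sets, 64 were controls and were dropped. The platform's annotation gave 1 symbol to 34880, several to 923 and none to 9148, and no gene was named from a set with several.

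The log2 of each intensity, without a pseudocount, was aligned between arrays on the median of the tested features. Probe sets above log2 5 on at least 13 of 54 paired arrays were kept, and the brightest represented its gene, giving 10684 features. Tests used lmFit and eBayes of limma 3.58.1 (R 4.3.3) with region and strain, a threshold of 0.05 and Benjamini-Hochberg adjustment over all features. Probe sets beside the brightest were fitted in the same way with all sets entered. Per the labels' design text, both regions came from the same brains, so strain was the block. As a check, for 24 of 27 cortex arrays the closest accumbens array was that of the same strain. Summaries and plots used Python 3.11.15, numpy 2.4.6, pandas 2.3.3 and matplotlib 3.10.9.

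The members and lists were chosen with earlier results of these data known. Named members were the 8 largest region differences in each direction, up to 12 strain-dependent genes, isoform pairs, the Sdh genes and Cycs, and from each other list up to 2 genes per direction. A few others are named as parts of a complex. Alternatives were other scalings, filters, probe sets, variance settings, thresholds, left-out strains and no block. On simulated data with 10684 features, region differences of 0.1, 0.2, 0.4 and 0.8 were recovered in 8%, 52%, 98% and 98% of cases. Strain differences of those sizes were recovered in 2%, 56%, 88% and 100%, and 0.0778% and 0.0583% of unchanged features were called. Few simulated features carried a region or strain difference, whereas 82.6% and 20.2% of features passed those tests in the data. The adjustment was therefore stricter in the simulation, and its rates do not describe the tests of the data.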

Additional observations from a re-analysis of the deposited data

How the results depend on the processing

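The member counts, 30 higher, 30 lower and 7 strain-dependent, moved by over 1.5 times in 3 settings. As deposited, 19 were lower and 42 higher, and over all features 5451 were higher and 3516 lower, against 4563 and 4257 after alignment. With no filter, where arrays were aligned on the median of 28253 mostly dim features, 54 of 90 members were higher and 19 lower, and over all features 14938 and 8114. There the complex medians were 0.21 (complex I), 0.41 (its assembly factors), 0.059 (complex II), 0.037 (complex IV, with its dim isoforms) and 0.13 (ATP synthase). Counting every probe set gave 52 higher, 56 lower and 17 strain-dependent of 141. The region difference turned sign in Sdha (0.060 as deposited, 0.010 after quantile normalization, 0.12 with no filter, 0.012 without probe sets prone to cross-hybridisation), Cox5b (0.054 as deposited, 0.12 with no filter), Atp5g3 (0.045 and 0.11) and Ndufv3 (0.0053 with no filter). Without the replicate block, which pairs the regions by strain, 30 were higher and 31 lower. A filter at log2 7, leaving out strains, trend and robust variance, and a threshold of 0.01 kept every count within 1.5 times. Requiring all probe sets of a gene to pass the same way, chosen after seeing the data, gave 21, 23 and 6. Genes with 1 probe set meet that rule whenever they pass, and they made up 11 of the higher and 17 of the lower. Region differences of named members were on the same side and of the same sign in 275 of 295 refits, and strain calls in 252 of 265. One array per strain and region, and signals near background in Ndufaf6 and the 11 untested genes, limit what can be read.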

Other observations

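The 2 strains profiled in cortex only did not enter any test. In MRL/MpJ the median deviation of the 79 genes from the mean of the other 27 cortex arrays was -0.13, and 13 genes lay below all 27, among them Sdha at 10.01, Ndufb10 at 9.81, Uqcrq at 9.43, Cox7a2 at 11.94 and Atp5md at 10.43. In NZO/HILtJ the median deviation was -0.03, and 3 genes lay below all 27: Ndufa10 at 9.70, Ndufa7 at 9.80 and Ndufaf2 at 6.13. The share of all tested features that lay outside the 27 on these 2 arrays was not counted. Neither count can therefore be read as particular to these genes.

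Several genes next to the chain, among them Atpif1, Acad9 and Timmdc1, had wider ranges of strain means than the brightest probe set of any tested member. Atpif1, the inhibitor of the ATP synthase, had a strain mean of 8.30 in WSB/EiJ, and the next lowest strain stood at 10.35 (median 10.57, highest 10.79 in NOD/LtJ; moderated F of limma, adjusted p = 1.79e-10). Acad9, a complex I assembly factor, stood at 3.90 in BUB/BnJ and 3.91 in the next strain, both below log2 5 and near background. Its median was 6.15 and its highest mean 6.55, in NON/LtJ (adjusted p = 1.51e-08). Timmdc1 ran from 5.17 in KK/HlJ to 6.51 in NON/LtJ around a median of 5.29 (adjusted p = 4.01e-12). These genes were picked after their values were seen.

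A dim probe set of Ndufs4, a complex I subunit, stood at 5.25 in cortex and 5.26 in accumbens in BALB/cByJ. The other strains lay between 5.58 and 6.52 in cortex and between 5.96 and 7.10 in accumbens. Its strain test, limma's moderated F, gave an adjusted p of 7.64e-05. The brightest Ndufs4 set (adjusted p = 0.386) and the remaining one (adjusted p = 0.369) did not pass, and both were lowest in WSB/EiJ. The dim set was picked after its values were seen.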
